A study of Mus musculus with 23 samples.

Results

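Genes of the extracellular matrix and of the integrins that bind it were followed in mouse skin tumours with and without an inducible TGF-beta transgene. Members were taken by symbol. The rule itself uses no measured value, but it was chosen with earlier results of these data known. They were the genes whose symbol starts with Col and a digit, with Lam and a, b or c and a digit, or with Itga, Itgb, Fbln, Fbn, Mfap, Thbs, Nid or Lox, together with Fn1, Sparc, Lum, Dcn, Bgn, Postn, Eln and Vcan, and without Itgb4 and Lamb3. On the array 63 genes met the rule through 69 probes with a single annotated symbol, out of 6795 genes in all. Of these 63, 57 were measured in enough pairs of tumours to be tested, among 6413 tested genes. Col13a1, Col9a2, Dcn, Fbln2, Itga6 and Loxl1 were measured too rarely to be tested. One of the genes tested, Itgbl1, encodes an integrin-beta-like protein and not an integrin chain. By its symbol it is counted below in the family of integrin beta chains.

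The extracellular matrix is the protein scaffold around cells. Fibrillar collagens give the dermis its strength, fibulins, fibrillins and microfibril proteins build elastic fibres, lysyl oxidases cross-link both, and laminins, nidogens and collagen IV form the sheet under the epidermis on which basal keratinocytes rest. Integrins are the paired receptors by which cells hold to these proteins, and some of them are carried only by blood cells. TGF-beta is a secreted factor known for raising matrix production in fibroblasts through the SMAD proteins.

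The bigenic mice had the genotype K5rTA tetOTGFbeta: a keratin 5 promoter drives the doxycycline-dependent transactivator in keratinocytes, and that switches on TGF-beta. The monogenic mice carried K5rTA without the TGF-beta gene. Every mouse of either genotype was an adult FVB animal given as 7 to 12 weeks old, was painted with 100 µg of DMBA and then with 5 µg of TPA 2 times a week for 20 weeks, and ate chow with 1 g of doxycycline per kg during the last 48 h. Papillomas, the benign tumours, came up at 12 to 14 weeks of promotion and squamous cell carcinomas at 25 to 35 weeks. Each of 23 arrays compared a bigenic with a monogenic tumour of the same class in 2 colours. Arrays of the same tumours were averaged, which left 11 papilloma pairs, made from 8 bigenic and 7 monogenic tumours, and 7 carcinoma pairs, made from 5 bigenic and 4 monogenic tumours. A pair is named here by its bigenic and then its monogenic tumour, as in 237/241A. Tumours were used more than once, tumours such as 228A and 228B share a number, and the labels do not say which tumours came from 1 animal, so p-values treat as separate what may be related. The control is the monogenic tumour on doxycycline, and no tumour without doxycycline was part of this comparison.

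The arrays held 6729 to 9573 measured probes each, with 0.24% to 29.9% of probes missing, and the number of arrays limits the precision. Values are log2 ratios turned so that every array runs the same way, and 1 unit is a 2-fold difference. The sources used here do not name the dye in the numerator. A value on the positive side stands for more RNA in the bigenic tumour where Cy5 was divided by Cy3, and for less RNA there where the division was reversed. Results are therefore given as sides, not as rises or falls. In whole tumours, fewer cells of a type and less RNA per cell cannot be told apart. Keratinocyte markers were measured for 11 of 20 listed genes, and ratios do not show how much RNA a tumour held of any of them.

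In the carcinoma pairs, 51 of the 57 genes had a mean on the positive side, at a median of 0.29, while 49.1% of all 6413 genes tested were positive and their median was -0.01. In the papilloma pairs 33 of 57 lay on that side, at a median of 0.03, against 53.9% of all genes and a median of 0.02. That papilloma median was near 0 and turned negative in some settings, to -0.02 with a dye effect fitted for each gene and to -0.03 without monogenic tumour 257B. No member passed an adjusted p of 0.05 (limma, Benjamini-Hochberg over all genes) in either class, where 0.0624% of all genes did so in papillomas and 0.0936% in carcinomas. At an unadjusted p under 0.05, 13 members (22.8%) were positive in carcinomas and 0 negative, against 4.44% of all genes positive and 6.38% negative. In papillomas only Lamb1 had an unadjusted p under 0.05, or 1.75% of members on the positive side against 4.32% of all genes, and 0 members were negative against 5.47%. With the dye effect fitted, Mfap2 took the place of Lamb1 (unadjusted p = 0.049, limma), and Col2a1 and Lama2 were negative at -0.58 and -0.86 (unadjusted p = 0.0463 and 0.0341), 2 of 57 members against 3.9% of all genes.

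The difference between the classes, carcinoma minus papilloma in the same fit, was positive for 44 of 57 members at a median of 0.28, where 48.2% of all genes were positive at a median of -0.01. No member passed the adjusted threshold (limma, against 0.359% of all genes). With an unadjusted p under 0.05 there were 9 members (15.8%) on the positive side and 0 on the negative, against 3.07% and 4.65% of all genes. For the mean of both classes 49 of 57 members were positive at a median of 0.16, and 0 passed the adjusted threshold (limma, against 0.0156% of all genes). Here 12 members (21.1%) were positive with an unadjusted p under 0.05 and 0 negative, against 5.32% and 7.27% of all genes.

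**Figure D1:**
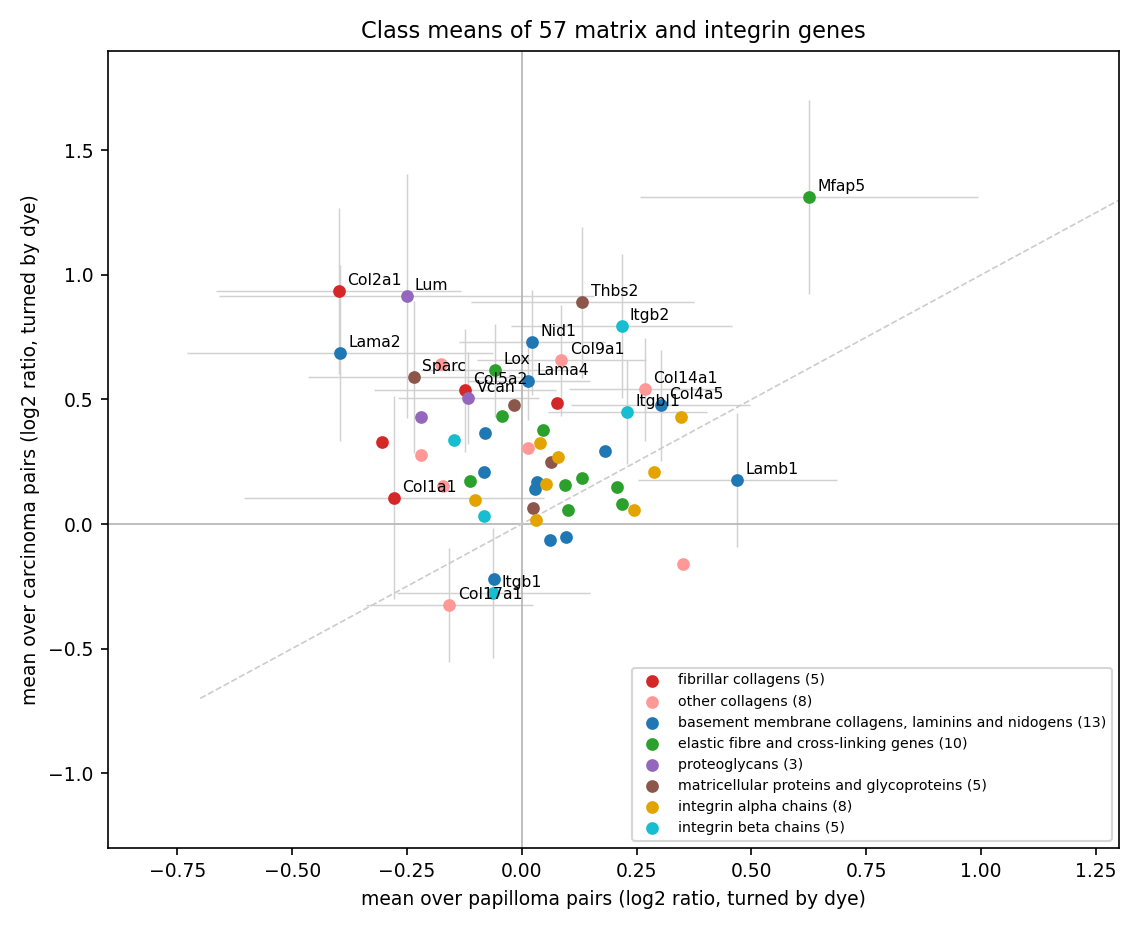
Each point is 1 of the 57 tested genes, placed by its mean log2 ratio over the papilloma pairs (horizontal axis) and over the carcinoma pairs (vertical axis), coloured by family; grey bars are standard errors of the genes with names, and the dashed line marks equal values. Of the 57 points, 51 lie above 0 on the carcinoma axis and 44 above the dashed line, with Mfap5 farthest up at 1.31.

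Among the basement membrane genes, 10 of 13 were positive in carcinomas at a median of 0.21, and 9 of 13 in papillomas at a median of 0.03. Nid1, which encodes the nidogen that links laminin to collagen IV, ran from 0.04 to 1.49 over the 7 carcinoma pairs with a median of 0.63, and from -0.82 to 0.88 over the 11 papilloma pairs with a median of -0.15. All 7 carcinoma pairs were positive and 3 of 11 papilloma pairs were, and the ranges overlapped. Its fitted mean was 0.73 ± 0.21 (SE) in carcinomas (limma, unadjusted p = 0.00213, adjusted p = 0.173) and 0.02 ± 0.16 in papillomas, a difference of 0.71 ± 0.26 (adjusted p = 0.441).

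Lama4, the laminin alpha chain of blood vessel walls and muscle, had the lowest adjusted p of any member in a class. It ran from -0.20 to 1.37 in carcinomas with a median of 0.87, and from -0.24 to 0.17 in the 9 papilloma pairs that measured it with a median of 0.03. The carcinoma pairs 236/241A, 1687/221, 170/242, 1684A/242 and 236/257A stood above every papilloma pair, and 237/241A and 237/257A did not. The fitted mean was 0.57 ± 0.15 in carcinomas (limma, adjusted p = 0.148) and 0.01 ± 0.13 in papillomas.

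Lamb1, part of most laminins of early tissue and vessels, had its higher mean in papillomas, at 0.47 ± 0.22 (limma, unadjusted p = 0.0411, adjusted p = 0.496), with 8 of 11 pairs positive and values from -0.63 to 2.28, against 0.18 ± 0.27 in carcinomas. Its top papilloma values came from 228A/2000E and 1684B/257B, the first at 2.28. Its unadjusted p rose past 0.05 without any one of the bigenic tumours 1684B, 1961B, 1995B, 2145C and 228A, without any one of their monogenic partners other than that of 2145C/2000F, or without that of 1762D/2000D. With a dye effect fitted Lamb1 stood at 0.32 in papillomas (limma, unadjusted p = 0.171). Lama2, the chain of muscle basement membranes, had the widest spread of the laminins, from -3.36 in 228A/2000E to 1.19 in 1762D/257B over 9 papilloma pairs, and its difference between the classes was 1.08 ± 0.49 (limma, unadjusted p = 0.0381, adjusted p = 0.617). The members on the negative side in carcinomas included Lama5, a main alpha chain of adult epidermal basement membrane, at -0.22 ± 0.20 with 2 of 7 pairs positive.

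The collagen IV chains Col4a1 and Col4a2, which make up most collagen IV, stood at 0.21 ± 0.31 and 0.36 ± 0.27 in carcinomas and both at -0.08 in papillomas. Their genes lie on opposite strands with overlapping 5′ ends. In the RefSeq promoter table for GRCm38.p6 the start of Col4a2 on the plus strand of chromosome 8 is at 11312805. That of Col4a1 on the minus strand is at 11312826, 21 bases away, so each gene reads across the start of the other. Across pairs the 2 chains followed each other, with Pearson's r of 0.89 over 11 papilloma pairs and 0.91 over 7 carcinoma pairs. These correlations are descriptions, since pairs share tumours and both values of a pair come from the same arrays. Col4a5, the chain mutated in X-linked Alport syndrome, was positive in 7 of 11 papilloma and 5 of 7 carcinoma pairs, at 0.30 ± 0.19 and 0.48 ± 0.22 (limma, unadjusted p = 0.134 and 0.0451). Col18a1, whose C-terminal part is endostatin, stood at 0.29 ± 0.20 in carcinomas and 0.18 ± 0.16 in papillomas.

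All 10 tested genes of elastic fibres and cross-linking had a positive mean in carcinomas, at a median of 0.18, and 7 of 10 in papillomas, at 0.10. Mfap5, a microfibril-associated glycoprotein that sits on fibrillin, had the largest mean of any member in carcinomas. It measured 3.72 in 1687/221, 2.40 in 1684A/242, 2.29 in 170/242, 2.17 in 237/241A, 0.81 in 236/241A, -0.24 in 237/257A and -0.76 in 236/257A. The 5 pairs with other monogenic tumours were all positive and both pairs with 257A were negative. In papillomas it ran from -0.28 to 1.77 with a median of 0.32 and 7 of 9 pairs positive, so the ranges overlapped. The fitted means were 1.31 ± 0.39 in carcinomas (limma, adjusted p = 0.188) and 0.63 ± 0.37 in papillomas (adjusted p = 0.603). The mean of both classes, 0.97 ± 0.27, had the lowest adjusted p of any member there, at 0.18 (limma).

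Lox, the lysyl oxidase that starts collagen and elastin cross-links, measured 1.53 in 170/242, 1.46 in 1684A/242, 1.18 in 1687/221, 0.84 in 236/241A and 0.43 in 237/241A, but -0.02 in 236/257A and -0.27 in 237/257A. Papilloma pairs ran from -0.49 to 0.53 with a median of -0.05 and 4 of 10 positive, below 4 of the 7 carcinoma pairs. The means were 0.62 ± 0.19 in carcinomas (limma, adjusted p = 0.196) and -0.06 ± 0.16 in papillomas, and they differed by 0.67 ± 0.25 (unadjusted p = 0.0124, adjusted p = 0.43). Loxl3 and the fibulin Fbln5, an organiser of elastin, stood at 0.38 ± 0.19 and 0.43 ± 0.23 in carcinomas. Elastin itself, Eln, stood at 0.08 ± 0.24 in carcinomas and 0.22 ± 0.20 in papillomas. Fbn2, the fibrillin of developing tissue, was positive in 8 of 8 papilloma pairs at 0.21 ± 0.17 and in 4 of 6 carcinoma pairs. With a dye effect fitted its means were 0.02 in papillomas and 0.07 in carcinomas.

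The 5 fibrillar collagen genes were all positive in carcinomas, at a median of 0.49, and 1 of 5 was positive in papillomas, at a median of -0.28. Col2a1, the cartilage collagen, had the largest class difference of the family, at 1.33 ± 0.43 (limma, unadjusted p = 0.00491), with the lowest adjusted p of any member for the difference, 0.293. It ran from -0.76 to 2.58 in carcinomas with a median of 1.18 and 6 of 7 pairs positive, and from -2.95 to 0.25 in papillomas with a median of -0.20 and 5 of 11 positive. The highest papilloma pair lay below 6 of the 7 carcinoma pairs. Col5a2, a chain that nucleates collagen I fibrils, stood at 0.54 ± 0.25 in carcinomas (limma, unadjusted p = 0.0404) and -0.12 ± 0.20 in papillomas, and Col11a2 at 0.49 ± 0.29 and 0.08 ± 0.23.

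Collagen I is the bulk of dermal matrix. Col1a1 ran from -0.29 to 0.78 over the carcinoma pairs with a median of -0.10 and 3 of 7 positive, and its mean was 0.11 ± 0.41 (limma, adjusted p = 0.963). Col1a2 was positive in 6 of 7, at 0.33 ± 0.35. In papillomas the same genes spanned the widest range of the family: Col1a1 measured -3.50 in 2145C/2000F, -2.91 in 1762D/257B and 2.75 in 228A/2000E, and lay between -0.91 and 0.72 in the other 8 pairs. Col1a2 gave -3.30, -2.88 and 1.12 in those pairs. The 2 chains, which join in 1 trimer, had r = 0.93 across the 11 papilloma pairs and 0.85 across the 7 carcinoma pairs, as a description over pairs that share tumours. Other chains of 1 trimer followed each other less. Col9a1 and Col9a3 had r = -0.10 over 9 papilloma and 0.03 over 7 carcinoma pairs. Lamb1 and Lamc1 had 0.18 over 10 and 0.71 over 7, and Lama4 and Lamc1 had -0.05 over 9 and 0.56 over 7. Within the fibrillar family the median r between genes was 0.74 over papilloma pairs and 0.16 over carcinoma pairs.

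Of the other collagens, 6 of 8 were positive in carcinomas at a median of 0.29 and 4 of 8 in papillomas at -0.07. Col9a1, a chain of the fibril-associated collagen IX of cartilage, was positive in 6 of 7 carcinoma pairs at 0.66 ± 0.22 (limma, adjusted p = 0.257). Col14a1, a fibril-associated collagen of dermis, stood at 0.54 ± 0.21 in carcinomas (adjusted p = 0.301) and 0.27 ± 0.17 in papillomas. It was above 0.5 in 4 carcinoma pairs and between -0.11 and -0.02 in 1687/221 and both 257A pairs. Col12a1, its relative on collagen I fibrils, was positive in 6 of 7 carcinoma and 3 of 11 papilloma pairs, at 0.28 ± 0.22 and -0.22 ± 0.17, and Col6a1, of the microfibrils around cells, stood at 0.64 ± 0.32 and -0.18 ± 0.24. The most negative member in carcinomas was Col17a1, the keratinocyte collagen of hemidesmosomes, at -0.33 ± 0.23 with 3 of 7 pairs positive and values from -1.70 to 0.29 (limma, adjusted p = 0.639).

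The proteoglycans, which sit on collagen fibrils or fill the space between them, had the highest family median in carcinomas at 0.51, with 3 of 3 positive, and -0.22 in papillomas with 0 of 3 positive. Vcan, the large proteoglycan versican, ran from -0.07 to 1.51 in carcinomas with a median of 0.47, and from -0.72 to 0.53 in papillomas with a median of -0.19 and 3 of 10 positive. The ranges overlapped, and the means of 0.51 ± 0.18 and -0.12 ± 0.15 differed by 0.62 ± 0.24 (limma, unadjusted p = 0.017, adjusted p = 0.461). Lum, the fibril-spacing lumican, was at least 1.06 in the 5 carcinoma pairs without 257A and at -0.83 and -0.90 in the pairs with it, and its mean of 0.91 ± 0.49 had an unadjusted p of 0.076 (limma). Bgn, biglycan, showed the same split at 0.43 ± 0.29. In papillomas Bgn stood at -0.22 ± 0.23, and at 0.04 with a dye effect fitted.

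Of the matricellular genes, which encode matrix proteins that signal more than they support, 5 of 5 were positive in carcinomas at a median of 0.48 and 3 of 5 in papillomas at 0.02. Thbs2, a thrombospondin made by fibroblasts, was positive in 7 of 7 carcinoma pairs, from 0.10 in 1687/221 to 2.03 in 236/241A, with a median of 1.02. Papilloma pairs ran from -2.32 to 2.36 around a median of 0.10 and spanned the whole carcinoma range. The means were 0.89 ± 0.30 (limma, adjusted p = 0.263) and 0.13 ± 0.24. Sparc, osteonectin, was likewise positive in 7 of 7 carcinoma pairs, from 0.03 to 1.26, and in 3 of 11 papilloma pairs, from -2.73 to 0.87. Its class difference was 0.82 ± 0.38 (limma, unadjusted p = 0.042, adjusted p = 0.626). Thbs1 and Thbs4 had carcinoma means of 0.48 ± 0.25 and 0.07 ± 0.26.

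Nid1, Thbs2, Sparc and Vcan lay on the positive side together in carcinomas, and the 250 bases before their RefSeq start sites (GRCm38.p6) are shown, each 5′ to 3′ on the strand of its gene. Capitals mark the motif CAGAC, which holds the SMAD core, on either strand. Thbs2 had 2 matches, beginning 66 and 43 bases before the start, Sparc had 1 at 35 bases, and Nid1 and Vcan had 0. The windows are chr13:13437352-13437601, plus strand, for Nid1; chr17:14694263-14694512, minus strand, for Thbs2; chr11:55420081-55420330, minus strand, for Sparc; and chr13:89742513-89742762, minus strand, for Vcan.
Nid1: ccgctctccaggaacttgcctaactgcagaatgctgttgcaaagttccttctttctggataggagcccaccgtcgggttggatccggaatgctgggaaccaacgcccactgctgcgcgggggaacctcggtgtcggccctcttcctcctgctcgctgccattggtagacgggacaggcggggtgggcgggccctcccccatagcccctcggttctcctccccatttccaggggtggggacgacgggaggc
Thbs2: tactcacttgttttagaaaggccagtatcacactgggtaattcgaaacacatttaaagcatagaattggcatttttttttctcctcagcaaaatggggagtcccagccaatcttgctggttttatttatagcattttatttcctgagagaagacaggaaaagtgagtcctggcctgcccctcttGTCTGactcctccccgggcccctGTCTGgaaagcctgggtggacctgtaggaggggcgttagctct
Sparc: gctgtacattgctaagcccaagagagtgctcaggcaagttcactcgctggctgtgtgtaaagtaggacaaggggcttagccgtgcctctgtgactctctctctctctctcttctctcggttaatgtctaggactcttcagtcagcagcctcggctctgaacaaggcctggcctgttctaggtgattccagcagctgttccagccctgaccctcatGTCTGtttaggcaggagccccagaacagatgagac
Vcan: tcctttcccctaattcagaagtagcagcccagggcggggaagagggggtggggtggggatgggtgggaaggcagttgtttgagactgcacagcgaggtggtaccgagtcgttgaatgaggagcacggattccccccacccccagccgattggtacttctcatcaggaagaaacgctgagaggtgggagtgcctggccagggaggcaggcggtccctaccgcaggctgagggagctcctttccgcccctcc
The table held windows for 37 of the member genes, 41 windows in all, and CAGAC occurred in 17 of them (41.5%) against 42.2% of all 32851 windows of this length. The AP-1 motif TGANTCA, also searched on both strands, occurred in 1 member window (2.44%) against 6.75%. A match is a run of letters, and nothing here measured binding.

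The integrin alpha chains had small means: 8 of 8 were positive in carcinomas at a median of 0.18 and 7 of 8 in papillomas at 0.07, and none had an unadjusted p under 0.05 in a class (limma). Itgav, the alpha chain of vitronectin receptors that release TGF-beta from its latent form, stood at 0.43 ± 0.22 in carcinomas and 0.35 ± 0.19 in papillomas, and its mean over both classes of 0.39 ± 0.14 had an unadjusted p of 0.0132 (adjusted p = 0.281, limma), which became 0.129 at a mean of 0.28 with a dye effect fitted. Itga5, of the fibronectin receptor, was positive in 10 of 11 papilloma pairs at 0.29 ± 0.15 and in 4 of 7 carcinoma pairs at 0.21 ± 0.18. Itgam, Itgal, Itgae and Itga4 are chains of leukocytes, and of these Itgam, of macrophages and neutrophils, had the highest carcinoma mean at 0.32 ± 0.20.

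Among the beta chains, counted with Itgbl1, 4 of 5 were positive in carcinomas at a median of 0.34, and 2 of 5 in papillomas at -0.06. Itgbl1, which is not an integrin chain, was among the positive genes in both classes. Itgb2, the beta chain that only leukocytes carry, measured 2.61 in 170/242, 2.05 in 1684A/242, 1.42 in 1687/221, 0.91 in 237/241A, 0.64 in 236/241A, 0.05 in 237/257A and -0.71 in 236/257A. Papilloma pairs ran from -1.24 to 0.95 with a median of -0.04, below the highest 3 carcinoma pairs. Its means were 0.80 ± 0.29 in carcinomas (limma, adjusted p = 0.278) and 0.22 ± 0.24 in papillomas. Itgb7, another leukocyte chain, stood at 0.34 ± 0.17 and -0.15 ± 0.15, a difference of 0.49 ± 0.23 (limma, unadjusted p = 0.0437). Itgb1, the partner of most matrix-binding alpha chains and the main beta chain of basal keratinocytes beside Itgb4, was negative in 6 of 7 carcinoma pairs at -0.28 ± 0.26 (limma, adjusted p = 0.762). Itgbl1 stood at 0.45 ± 0.21 and 0.23 ± 0.17.

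Known partner chains of integrins followed each other unevenly across pairs. Itga4 and Itgb7, which form the gut-homing receptor, had r = 0.78 over 8 papilloma and 0.89 over 6 carcinoma pairs. Itgam and Itgb2 had r = 0.07 over 11 papilloma and 0.74 over 7 carcinoma pairs. Itgav and Itgb3 had -0.38 and -0.31, and Itga5 and Itgb1 had 0.27 and 0.25. Each is a description over few pairs, with shared tumours and arrays.

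**Figure D2:**
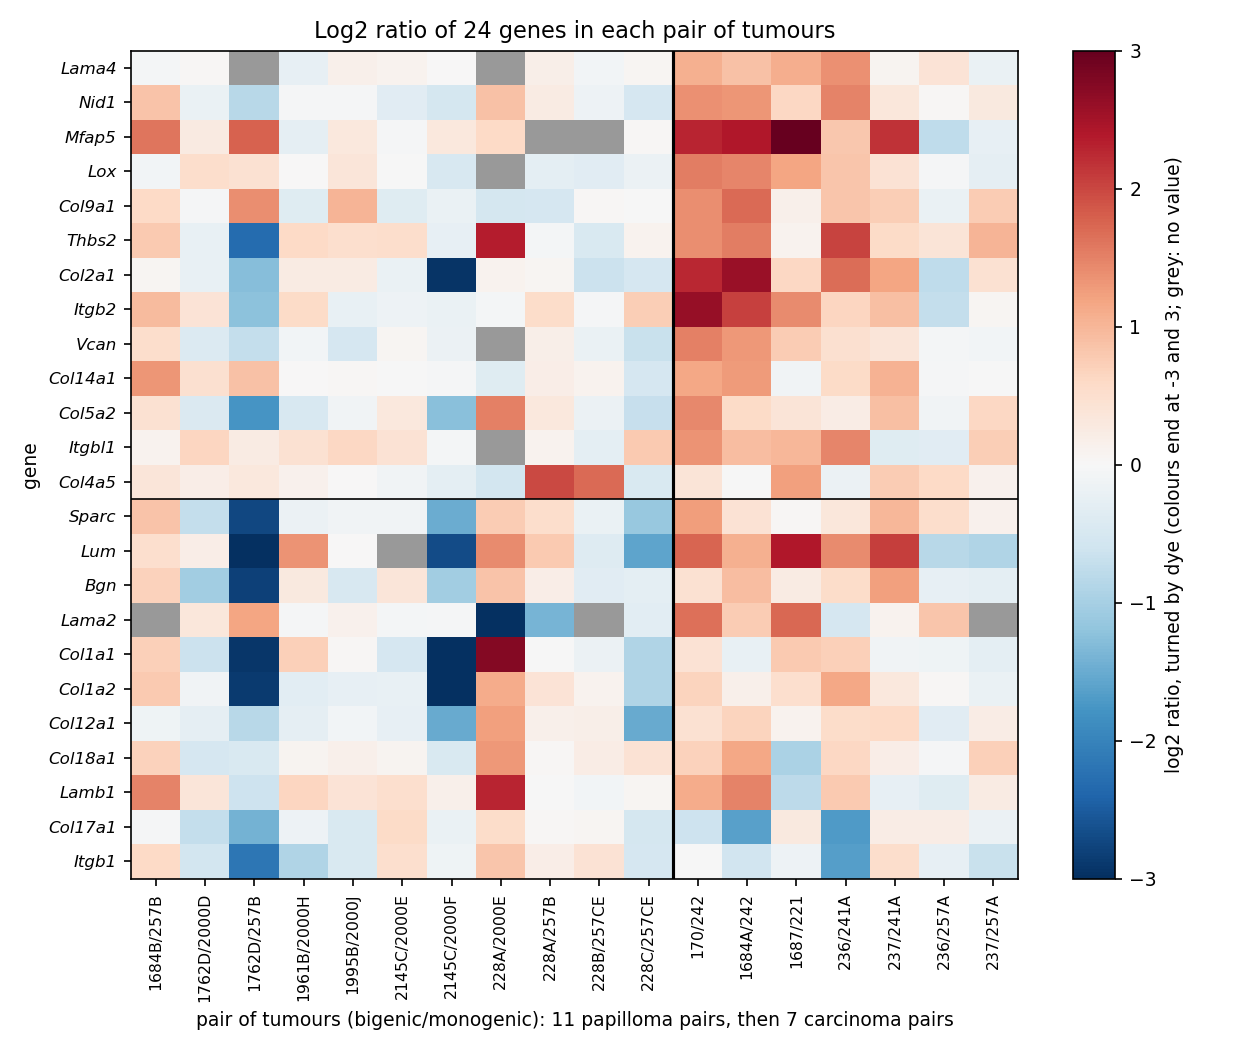
Rows are 24 genes and columns the 11 papilloma pairs (left of the thick line) and 7 carcinoma pairs, named bigenic/monogenic; colour is the log2 ratio turned by dye, grey cells have no value, and the upper 13 rows are the genes with an unadjusted p under 0.05 in carcinomas. The carcinoma columns are mostly red except in the pairs with 257A, and the cells of Col1a1, Col1a2 and Lum in 1762D/257B and 2145C/2000F are among the deepest blue, with that of Lama2 in 228A/2000E. Colours end at -3 and 3.

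The carcinoma values divided by the monogenic tumour of the pair. Of the members measured, 46 of 57 were positive in 170/242, 43 of 57 in 1684A/242, 38 of 49 in 1687/221, 39 of 56 in 236/241A and 42 of 56 in 237/241A, with medians of 0.69, 0.66, 0.50, 0.48 and 0.33. In the pairs with monogenic tumour 257A the counts were 23 of 57 in 236/257A and 29 of 56 in 237/257A, with medians of -0.04 and 0.05. The pairs also differed in spread. The SD over all genes was 0.43 in 236/257A, 0.49 in 237/257A and 0.415 in 237/241A. It was 0.77 in 170/242, 0.75 in 1684A/242, 0.99 in 1687/221 and 0.87 in 236/241A. What this spread adds to the division was not tested. Bigenic tumours 236 and 237 each appeared in both sets. With 236 the ratio was higher against 241A than against 257A in 36 of 56 members, at a median change of 0.51 where all genes gave -0.08, and with 237 in 38 of 55, at 0.28 where all genes gave 0.015.

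Both changes compare the same monogenic tumours, and gene by gene they did not run together. Of 54 members measured in all 4 pairs, 23 were higher against 241A with both bigenic tumours (42.6%, against 16.4% of all genes), and r between the changes was -0.10 across members and -0.29 across 6082 genes. With arrays that had the bigenic tumour in Cy3 alone, a setting added after seeing the data, r was -0.06 and -0.20, and 17 of 51 members were higher with both (33.3%, against 19.2% of all genes). These are correlations across genes, which are not independent replicates.

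**Figure D3:**
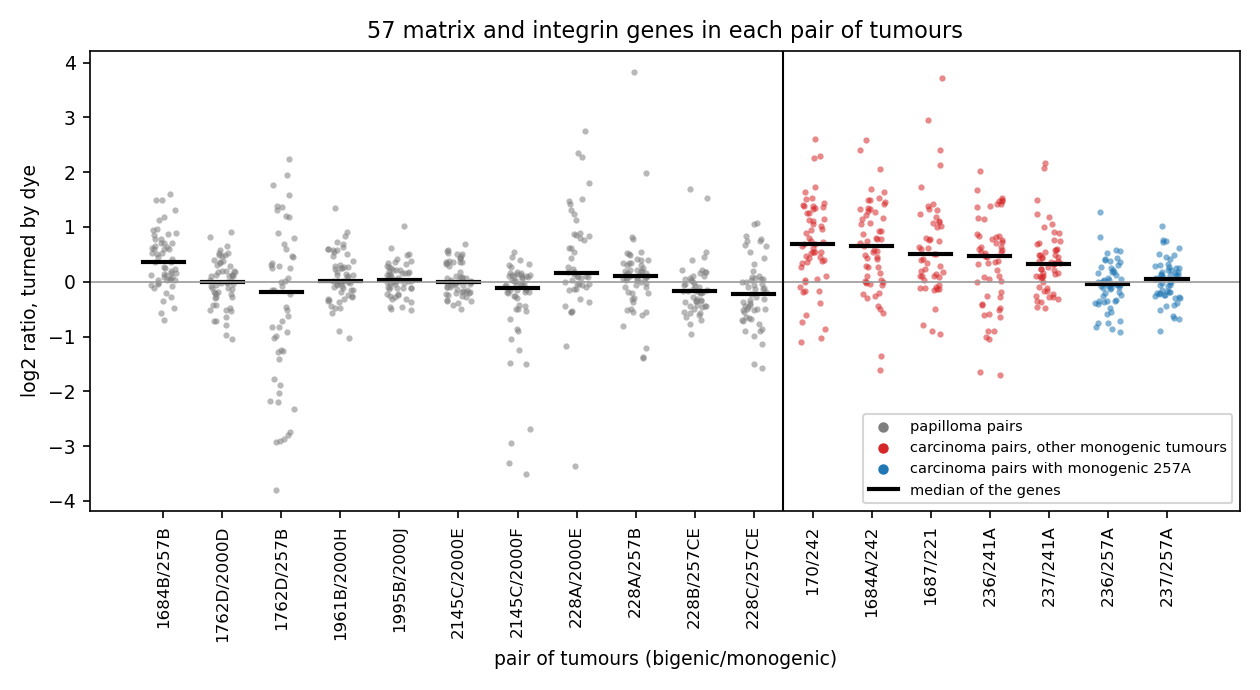
Each point is 1 gene in 1 pair of tumours (horizontal axis, bigenic/monogenic; vertical axis, log2 ratio turned by dye), with black bars at the median of the genes; grey marks papilloma pairs, red carcinoma pairs and blue the carcinoma pairs with monogenic tumour 257A. The medians of the red pairs lie between 0.33 and 0.69 and those of the blue pairs at -0.04 and 0.05.

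The calls in carcinomas depended on single tumours. Without monogenic tumour 257A, 5 members passed the adjusted threshold in carcinomas, and 21 had an unadjusted p under 0.05 on the positive side (36.8%, against 7.58% of all genes). They were Mfap5 at 2.26 ± 0.32 (adjusted p = 0.0015), Itgb2 at 1.42 ± 0.28 (0.0188), Lox at 0.98 ± 0.19 (0.0188), Col2a1 at 1.58 ± 0.34 (0.0243) and Lama4 at 0.76 ± 0.18 (0.0416, all limma). Over all genes 95 then passed, where 6 did with every tumour. For the difference between classes Col2a1 passed without 257A, at 1.98 ± 0.40 (adjusted p = 0.0296, limma). Over all genes 36 then passed for the difference, where 23 did with every tumour. Mfap5 and Itgb2 passed in carcinomas without bigenic tumour 236 (adjusted p = 0.0144 and 0.0459), where 49 of all genes passed, and Lama4 without bigenic tumour 237 (0.032, limma), where 11 did. Without monogenic tumour 242, whose pairs had the highest medians, 43 of 57 members were positive and 5 (8.77%) had an unadjusted p under 0.05, against 1.96% of all genes. For the difference the 9 members with an unadjusted p under 0.05 on the positive side became 16 without 257A (28.1%, against 4.82% of all genes) and 1 without 242 (1.75% against 2.35%). They became 5 without bigenic tumour 170 or 1684A (8.77%, against 2.59% and 2.67%) and 14 without bigenic tumour 1684B (24.6% against 3.18%). For the mean the 12 became 18 without 236 (31.6% against 7.44%) and 5 without 242 (8.77% against 2.64%). Mfap5 passed for the mean without 257A or 236 and Itgb2 without 257A (adjusted p = 0.00332, 0.0234 and 0.0348, limma). Over all genes 65 passed for the mean without 257A and 17 without 236, where 1 did with every tumour.

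The papilloma pairs did not share a side. The median of the members ran from -0.23 in 228C/257CE to 0.36 in 1684B/257B, where 45 of 56 members were positive, and 5 of 11 pairs had a positive median. As in carcinomas, the same bigenic tumour gave other values against another monogenic tumour. The fibrillar collagens had a median of -2.95 in 2145C/2000F and -0.20 in 2145C/2000E, of -1.77 in 1762D/257B and -0.21 in 1762D/2000D, and of 1.12 in 228A/2000E and 0.07 in 228A/257B. Lum measured -3.80 in 1762D/257B and 0.19 in 1762D/2000D. By the ranges of experiment numbers given below, 1762D/2000D lay in the first range and 1762D/257B in the last. The pair 228A/2000E lay in the last range, and 228A/257B had an array in the second and an array in the last. For 1762D and 228A, partner and range therefore cannot be told apart. Both pairs of 2145C lay in the first range. The pair 1762D/257B also had the widest spread over all genes among papilloma pairs, with an SD of 1.17 against 0.29 to 0.70 in the others, and its members had an SD of 1.46. In 2145C/2000F, by contrast, the SD was 0.33 over all genes and 0.88 over the members.

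Beside one another, the families differed in how far carcinoma and papilloma medians lay apart. The class difference had a median of 0.65 for proteoglycans, 0.63 for fibrillar collagens and 0.50 for matricellular genes. It was 0.31 for other collagens, 0.22 for integrin beta chains and 0.17 for elastic fibre and cross-linking genes. It was 0.14 for basement membrane genes and 0.10 for integrin alpha chains, where all genes had -0.01. The 0.22 of the beta chains is the value of Itgbl1 itself. The families were not tested against each other. The carcinoma medians of all 8 families kept their side in all 40 alternative settings that gave one. For the difference, the median of integrin alpha chains turned negative with the range of experiment numbers as a term, in the second range alone and without the first range, and that of basement membrane genes in the last 2 of these. Papilloma medians of 7 families changed side in 1 to 12 settings, most often the matricellular genes, and that of integrin alpha chains in none.

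**Figure D4:**
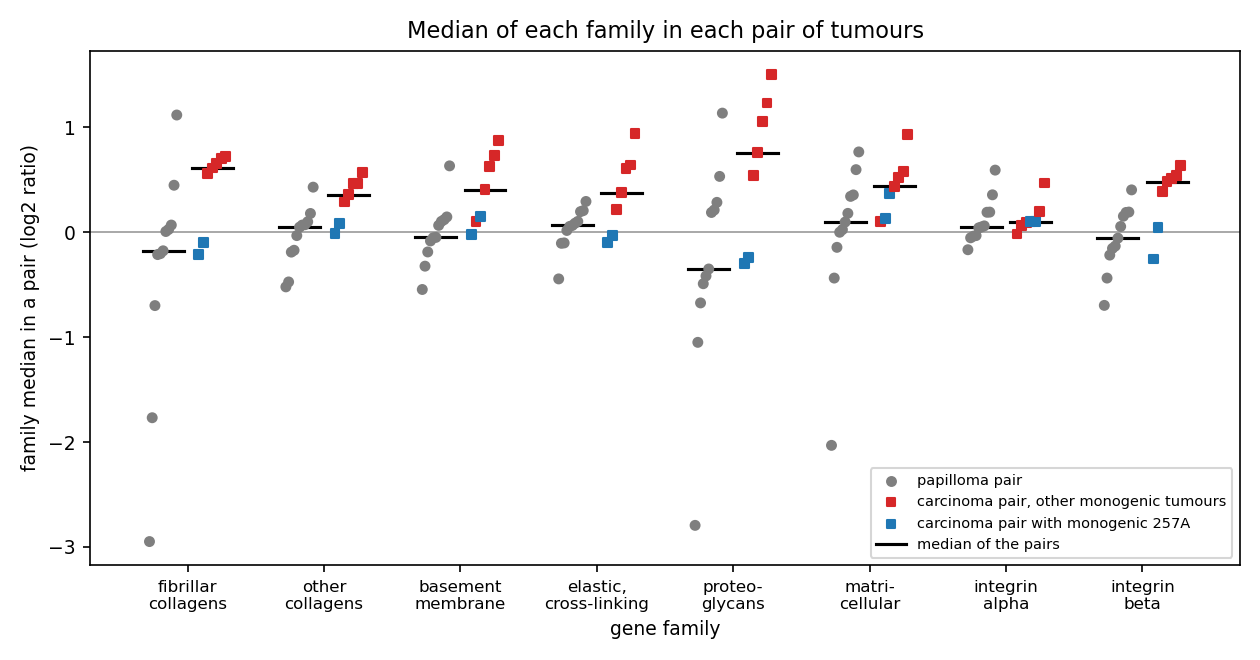
For each of 8 families (horizontal axis) the median log2 ratio of its genes is drawn for every pair of tumours (vertical axis), with grey circles for papilloma pairs, red squares for carcinoma pairs and blue squares for the carcinoma pairs with monogenic tumour 257A; black bars are medians of the pairs. In the proteoglycans the carcinoma bar stands at 0.76 and the papilloma bar at -0.35, and in 5 families (proteoglycans, fibrillar collagens, other collagens, elastic fibre genes and integrin beta chains) both blue squares lie below all red ones.

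Genes that process collagen were few on the array and nearer 0. Of 24 listed enzymes and chaperones 11 were tested, with 7 positive in carcinomas at a median of 0.06 and 6 positive in papillomas at 0.02. P4ha2, a prolyl hydroxylase subunit, stood at 0.37 ± 0.16 in carcinomas (limma, unadjusted p = 0.0301, adjusted p = 0.389), and Pcolce, which speeds the trimming of procollagen, at 0.37 ± 0.22 (adjusted p = 0.564).

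Markers of several cell types moved with the matrix genes between pairs, and their part in the result was not tested. Of 11 tested macrophage markers (15 listed) 10 were positive in carcinomas at a median of 0.56. Of these, 9 had an unadjusted p under 0.05 (limma), against 4.44% of all genes. Among them were Lyz2 at 1.25 ± 0.37 and Adgre1 at 0.61 ± 0.21 (limma, adjusted p = 0.183 and 0.263). Mrc1 lay on the negative side at -0.48 ± 0.32. In papillomas 10 of 11 macrophage markers were positive at 0.24, 0 with an unadjusted p under 0.05. The median of the macrophage markers in a pair ran from -0.02 in 236/257A to 1.78 in 170/242 in carcinomas, and from -1.12 to 0.94 in papillomas. Fibroblast markers were positive in carcinomas for 8 of 12 tested (18 listed) at 0.15. Igf1 at 0.92 ± 0.21 and Tagln at 0.82 ± 0.26 had the smallest p (limma, adjusted p = 0.0873 and 0.23). The 4 on the negative side were Twist2 at -0.35, Thy1 at -0.15, Acta2 at -0.09 and Tcf21 at -0.02. In papillomas 8 of 12 were positive at 0.08. The pair median of the fibroblast markers ran from -0.08 to 0.51 in carcinomas and from -0.44 to 0.41 in papillomas. Endothelial markers were positive in carcinomas for 7 of 9 (14 listed) at 0.15, and in papillomas for 4 of 9 at -0.05. In both classes 0 had an unadjusted p under 0.05. Their pair median ran from -0.43 in 236/257A to 0.93 in 1684A/242 in carcinomas, and from -0.65 to 0.56 in papillomas. Flt1 stood at 0.24 ± 0.15 and Egfl7 at -0.24 ± 0.16 in carcinomas.

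Skeletal muscle markers had the widest range. They were positive for 13 of 16 tested (19 listed) at 0.24 in carcinomas, but the median in a pair was 2.39 in 1687/221, 1.80 in 170/242 and 1.22 in 1684A/242, near 0 in both 241A pairs, and -0.83 and -1.15 in the 257A pairs. In papillomas 14 of 16 were positive at 0.45, and the class difference had a median of -0.20. At an unadjusted p under 0.05 (limma), 3 were positive in papillomas and 1 in carcinomas, against 4.32% and 4.44% of all genes. The pair median ran from -0.36 to 1.62 in papillomas, the last in 1684B/257B, where the matrix genes also had their highest papilloma median. Casq1, a calcium store protein of muscle, stood at 0.61 ± 0.21 in carcinomas (limma, adjusted p = 0.266). Keratinocyte markers were negative for 7 of 11 in carcinomas at -0.24 and for 11 of 11 in papillomas at -0.30. Their pair medians ran from -0.37 to 0.03 and from -0.84 to 0.08. At an unadjusted p under 0.05 (limma), 3 were positive and 3 negative in carcinomas, against 4.44% and 6.38% of all genes. In papillomas 0 were positive and 7 negative, against 4.32% and 5.47%. The 2 of smallest p in carcinomas, both positive, were Krt13 at 3.01 ± 0.64 and Krt15 at 0.75 ± 0.22 (limma, adjusted p = 0.0594 and 0.183). Krt13, a keratin of mucosa and of skin papillomas, stood at -2.45 ± 0.48 in papillomas, and its class difference of 5.46 ± 0.80 passed the threshold (limma, adjusted p = 0.00178). Across the 7 carcinoma pairs the member median had r = 0.83 with fibroblast, 0.84 with endothelial, 0.71 with macrophage, 0.84 with muscle and -0.85 with keratinocyte markers. Across the 11 papilloma pairs r was 0.65, 0.89, 0.78, 0.44 and 0.34. These are descriptions over values that share arrays and tumours.

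**Figure D5:**
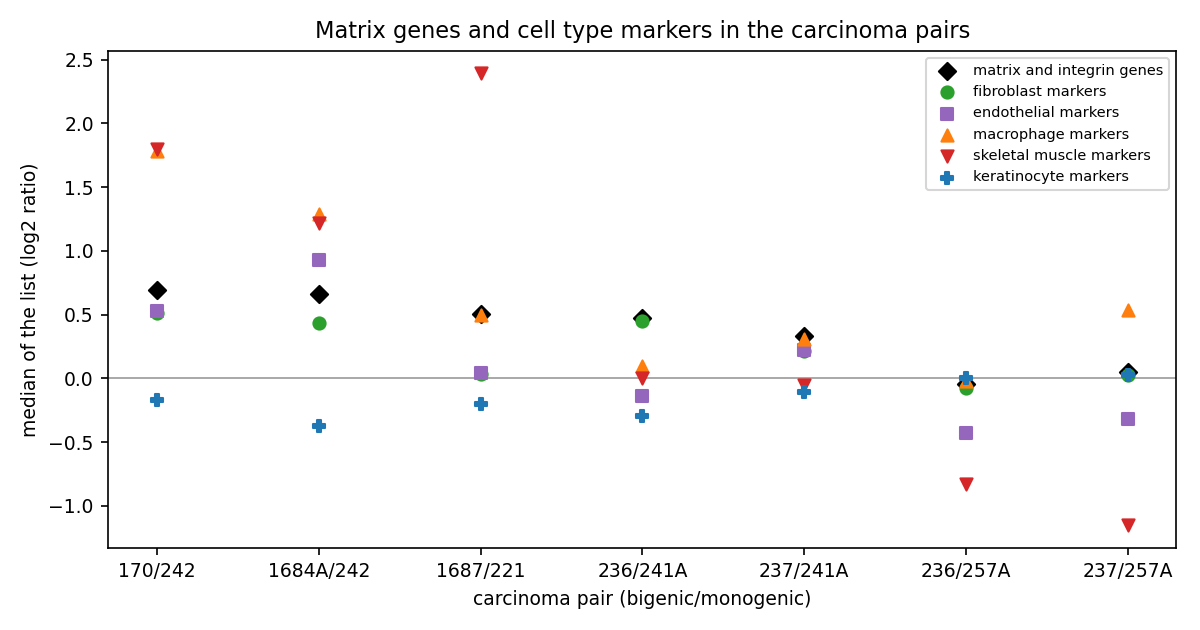
For each of the 7 carcinoma pairs (horizontal axis, bigenic/monogenic) the median log2 ratio (vertical axis) is drawn for the 57 matrix and integrin genes (black diamonds) and for 5 lists of cell type markers. In 236/241A and 237/241A the matrix genes stand at 0.48 and 0.33 with muscle markers near 0, and in 1687/221 muscle markers reach 2.39.

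Experiment numbers in the labels fall into 3 ranges, and carcinomas lie only in the second (6 pairs) and the last (1 pair). Within the second range 47 of 57 members were positive in carcinomas at a median of 0.35, and 30 of 57 in its 4 papilloma pairs at 0.05. The single carcinoma pair of the last range, 1687/221, had a median of 0.50, and the 5 papilloma pairs there 0.04. With the range as a term the class difference had a median of 0.43, with 40 of 57 positive, and within the second range alone 0.22, with 34 of 51 positive and 4 members with an unadjusted p under 0.05 on the positive side, against 2.07% of all genes. With a dye effect fitted for each gene, 50 of 57 members were positive in carcinomas at a median of 0.31, and 15 (26.3%) had an unadjusted p under 0.05 on that side, against 2.73% of all genes. Arrays of a pair in opposite dyes should mirror each other as deposited. Over member probes r between such arrays was -0.39, -0.03 and 0.08 in papillomas (3 pairs) and -0.20 and -0.40 in carcinomas (2 pairs). Over all probes past 4-fold on both arrays, 25 of 25, 9 of 12 and 8 of 10 had opposite signs in the papilloma pairs, and 15 of 15 and 10 of 10 in the carcinoma pairs.

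Probes of a gene were averaged, and 5 genes had probes with means on opposite sides. In papillomas these were Col12a1 (0.09 and -0.69), Col18a1 (-0.22 and 0.51) and Col5a2 (-0.43 and 0.01), and in both classes Col23a1 and Nid2. The Nid2 probes stood at 0.20 and -0.56 in carcinomas and the Col23a1 probes at 0.57 and -0.14, so the values of these genes are uncertain. The 2 Col5a2 probes were both positive in carcinomas, at 0.12 and 1.03.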

How the data were processed

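RNA of a bigenic and a monogenic tumour was labelled with Cy3 and Cy5 by aminoallyl coupling and hybridised to 1 array, per the labels' protocols. The deposited values are 1 signed ratio per probe, taken here as log2 (they run from -11.3 to 11.2). How the authors scanned, background-corrected and normalized the arrays, which dye they divided by, and the base of the logarithm are all not given in the sources used here. Each array was centred on its median, the ratio was given a minus sign where the bigenic tumour was in Cy3 (18 of 23 arrays), and probes of a gene were averaged, as were arrays of the same 2 tumours. The platform annotation gave 1 symbol for 7486 of the 9596 probes, several for 483 and no entry for 1627.

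Genes with at least 8 papilloma and 5 carcinoma pairs were fitted in limma 3.58.1 (R 4.3.3) with 1 mean per class, weights for averaged arrays and eBayes, and p-values were adjusted by Benjamini-Hochberg at a threshold of 0.05. The script was tested on simulated data. Genes named are Nid1, Mfap5, Lox, Thbs2, Col12a1 and Col18a1, up to 8 members each way of smallest unadjusted p in each comparison, 2 members of each family of smallest p in the mean of both classes, up to 2 genes of each other list, and members whose probes differ in sign. Further members were named after their values were seen, for their family or partner chain. So were Mrc1, Twist2, Thy1, Acta2 and Tcf21, as list genes on the negative side in carcinomas. The members and lists were chosen with earlier results of these data known. Array numbers shared by both classes did not pair them. Alternatives covered dye, centring, quantile scaling, filters, weights, experiment range, shared tumours and each tumour left out.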

Additional observations from a re-analysis of the deposited data

Results flagged for a closer look

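Only the members named by the rule under the processing were checked. In 7 of their 49 groups of 4 to 10 pairs (1 gene in 1 class), the highest or lowest pair stood far from the rest by Dixon's 95% value; chance alone flags about 1 in 20 groups. In papillomas, Col22a1 measured 3.83 in 228A/257B with the next pair at 0.26, and Itgb7 measured -1.37 in the same pair with the next at -0.44. Both values rest on 1 array, since the dye-swapped array of 228A/257B had no value for either gene. Itga4 measured 2.25 in papilloma pair 1762D/257B with the next at 0.42, and 1.53 in carcinoma pair 236/241A with the next at 0.33. In carcinomas Lamb2 measured 1.03 and Itgae 1.33 in 1687/221, with the next pairs at -0.02 and 0.25, and Nid2 measured -0.86 in 170/242 with the next at -0.23. For Lamb2, 1687/221 was the only positive pair of 7.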

How the results depend on the processing

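No member with an unadjusted p under 0.05 in papillomas, carcinomas or the difference changed side there. The mean of both classes and genes of the other lists were not followed in this way. Other values, such as those near 0, did change side. The papilloma member median of 0.03 became -0.02 with the dye term and -0.03 with swaps not turned and without 257B, and fell just below 0 with quantile scaling and without 1684B or 228A. The dye term turned papilloma means near 0, such as those of Nid1 (-0.02), Lox (0.03), Thbs2 (-0.06), Lama4 (-0.04) and Col11a2 (-0.06), and the carcinoma means of Itga4 (-0.01), Itgal (-0.03) and Lamb2 (0.07). It also took Bgn in papillomas from -0.22 to 0.04, and the mean of both classes of Lama2 from 0.15 to -0.24. On the negative side, papilloma members went from 0 of 57 (all genes 5.47%) to 2 with the dye term (all genes 3.9%) and 4 with swaps not turned (all genes 7.48%). Counts are given as members past the adjusted threshold, members past an unadjusted p of 0.05 on the positive side, and all genes past the adjusted threshold (limma unless named); where a setting is not given, the count stayed within 1.5 times. In papillomas the members' unadjusted count of 1 (1.75%, all genes 4.32%) became 0 with a covariance of 0.2 between pairs that share a tumour (all genes 2.57%). It was also 0 without the first experiment range (all genes 3.43%). The count was 2 with equal spread (3.51%, all genes 6.13%), quantile scaling (3.51%, 6%) and no centring (3.51%, 6.28%). It was 2 as well with the bigenic tumour as replicate (3.51%, 3.9%) and probes taken singly (3.17%, 4.03%). It became 3 in the second range alone (5.88%, 4.84%) and 4 with each class alone (7.02%, 5.74%). Without single tumours it was 0 to 4, with 4 without bigenic tumour 236 (7.02%, 4.97%). All genes past the adjusted threshold went from 4 to 15 with the bigenic tumour in Cy3 only, 41 with equal spread, 46 with quantile scaling and 2 with equal weights. They were 1 with that covariance, the second range, no first range, no widest array and single probes. They were 0 with dye swaps not turned, the bigenic tumour as replicate, linked pairs averaged and genes measured in every pair. Without single tumours they were 0 to 7. In carcinomas members past the adjusted threshold went from 0 to 4 (Cy3 only), 1 (swaps not turned), 7 (bigenic as replicate) and 0 to 5 (tumours left out); the unadjusted 13 (22.8%, all genes 4.44%) became 22 (bigenic as replicate; 38.6%, all genes 9.31%), 21 (linked; 36.8%, 8.08%), 8 of the 35 left when every pair was required (22.9%, 3.52%) and 5 to 21; all genes went from 6 to 209, 261 and 113 in the first 3 of these, 44 with equal weights, 18 without the widest array, 3 in the second range and without the first, 1 with every pair, 0 with each class alone and linked tumours, and 3 to 95. For the difference, members past the adjusted threshold were 0 to 1 without single tumours; the unadjusted 9 (15.8%, all genes 3.07%) became 14 (24.6%) with Cy3 only and equal weights (all genes 4.69% and 3.8%), 18 (bigenic as replicate; 31.6%, 5.01%), 16 (linked; 28.1%, 3.88%), 4 of 51 (second range; 7.84%, 2.07%), 5 without the first range (8.77%, 2.01%), 5 of 35 with every pair (14.3%, 2.93%) and 1 to 16; all genes went from 23 to 7 (shared-tumour covariance), 43 (dye term, equal spread), 1 (swaps not turned), 41 (quantile), 14 (bigenic as replicate), 0 (linked, second range), 3 (no first range) and 5 to 36. The replicate block by array number, which does not pair samples (3 of 9 numbers had r over 0.1), gave 4 of 50 members on the unadjusted count (8%, all genes 2.46%) and 9 genes past the adjusted threshold. For the mean, members past the adjusted threshold were 2 (Cy3 only), 1 (swaps not turned) and 0 to 2; the unadjusted 12 (21.1%, all genes 5.32%) became 6 (dye term; 10.5%, 1.62%), 7 (no first range; 12.3%, 3.91%) and 5 to 18; all genes went from 1 to 295, 438, 2 (quantile), 4 (equal weights), 0 (bigenic as replicate, linked, no first range, every pair) and 0 to 65. The dye orientation and the few, shared carcinoma tumours limit every value; the causes of these shifts were not tested.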
